A study of Homo sapiens with 4 samples.

Results

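Splice site flanks are the stretches of a gene on either side of an exon border. This account describes where PR100-FLAG crosslinked to RNA within 200 nt of such borders. The borders were all internal exon-intron (5′ splice site) and intron-exon (3′ splice site) junctions of the Ensembl canonical transcripts of protein-coding GENCODE genes on chromosomes 1 to 22 and X. No measured value entered this choice. Of 19970 such genes, 18646 had at least 1 intron. Their 189620 introns gave 183932 5′ and 183868 3′ splice sites, 367800 in all, after a site shared by several genes had been counted once. The flanks held 251906 of the 1244203 cDNAs in the series.

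Splicing removes introns from pre-mRNA in the nucleus and joins the exons. The 5′ splice site is recognised by base pairing with U1 snRNA. The 3′ splice site is recognised through the branch point, the polypyrimidine tract, bound by U2AF, and the AG at the end of the intron. Exons also hold purine-rich enhancers bound by SR proteins. Crosslinks on the intron side of a border can come from RNA that still holds the intron, from another RNA made from it or from an exon of another transcript, whereas exon crosslinks can come from pre-mRNA or from mature mRNA. Many introns of genes for ribosomal proteins and translation factors hold a snoRNA, a small nucleolar RNA that guides modification of ribosomal RNA and is cut out of the spliced intron.

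The study measured RNA binding of poly(PR), a proline-arginine dipeptide repeat protein made from the expanded C9orf72 repeat of amyotrophic lateral sclerosis and frontotemporal dementia. All 4 libraries came from 1 condition: HEK293T cells, a human embryonic kidney line, transiently transfected with a construct for PR100 with a triple FLAG tag, induced with 150 ng/ml doxycycline for 24 h and irradiated once with UV at 160 mJ/cm2. SDS-PAGE served to purify the protein-RNA complexes in 3 libraries (replicates 1 to 3), and bead immunoprecipitation in replicate 4. The labels do not say whether replicates were separate cultures, so their spread may be partly technical, and overexpression in a dividing cell line is the only model here.

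The assay was iiCLIP, in which reverse transcription stops at the crosslinked base and each distinct cDNA, told apart by a random barcode, counts as 1 event. No control library was analysed here, so no background was subtracted. Every comparison was made between kinds of position within a library. For each of 18 ratios an exact two-sided sign-flip permutation test was run over the 4 libraries. Its smallest possible p, with 4 libraries, is 0.13 after rounding, which becomes 0.173 after Benjamini-Hochberg adjustment over the 18 ratios, so no ratio could pass a threshold of 0.05. Of the 18, 13 had 1 sign in all 4 libraries and thus p = 0.13 in this exact test.

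The libraries held 334057, 604816, 125694 and 179636 cDNAs. The last pair lay below the minimum of crosslinking events that the study's methods set for a library, and how that minimum was counted is not given in the sources used here. The flanks took 15.4%, 20.4%, 16.6% and 31.4% of them, or 20.9% ± 7.31 (SD, n = 4), with 95% Wilson intervals of at most 0.215 percentage points to either side, which cover counting error only. Replicate 4 stood above the others, and without it the share was 17.4% ± 2.58. Replicate 3, whose random barcode had 5 bases against 7 in the others, had 3.48 cDNAs per crosslinked position in the flanks, against 1.07 to 1.64 elsewhere. Intron sides held 26.1%, 17.1%, 25.1% and 14.6% of the flank cDNAs. The difference between libraries therefore lay mostly on the exon sides, which took 16.9% ± 7.05 of a library, while the intron sides took 4.06% ± 0.467.

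Signal was spread thinly over the flanks. Of the exon flanks, 29.8% before a 5′ splice site and 30.1% after a 3′ splice site held at least 1 cDNA over the 4 libraries. The corresponding shares of intron flanks were 7.23% and 7.24%. Only 510 and 542 exon flanks, and 38 and 39 intron flanks, held a cDNA in each library. At least 10 cDNAs were present in 2413 and 2552 exon flanks and in 144 and 129 intron flanks. Among the 5596 crosslink clusters that the authors called on the pooled libraries, 2698 (48.2%) overlapped a flank. Of these, 2100 touched exon sides only, 147 intron sides only and 451 both. In the clusters called on single libraries the share in flanks was lower, at 23.3%, 38.3%, 20.97% and 42.2% in replicates 1 to 4.

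Sequences around the leading positions show the kinds of RNA that carried the signal. Each is 36 bases of GRCh38 on the gene strand, 5′ to 3′, with the crosslinked base as the 6th letter. Capitals in the exon sequences mark GA-rich pentamers, namely GAAGA and its forms with G or C as the middle base.
NCL exon 2, chr2:231463242-231463277, minus strand: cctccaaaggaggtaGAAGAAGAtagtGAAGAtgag
HSP90AA1 exon 5, chr14:102084935-102084970, minus strand: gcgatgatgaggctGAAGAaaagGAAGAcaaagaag
ACVR2B exon 2, chr3:38477332-38477367, plus strand: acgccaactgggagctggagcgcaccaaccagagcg
In the intron sequences capitals mark the bases annotated as a snoRNA.
HSPA8 intron 8 with SNORD14E, chr11:123058132-123058167, minus strand: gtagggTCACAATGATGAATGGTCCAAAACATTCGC
RPL5 intron 5 with SNORD21, chr1:92837283-92837318, plus strand: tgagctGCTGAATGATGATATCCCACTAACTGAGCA
EIF4A2 intron 3 with SNORD2, chr3:186784791-186784826, plus strand: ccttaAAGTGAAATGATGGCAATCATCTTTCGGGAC

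All 3 exon positions lie in coding sequence. Those of NCL and HSP90AA1 lie in purine-rich stretches with GA-rich pentamers, and that of ACVR2B holds none of the 3 pentamers. In the 3 introns the leading crosslink lies at the first base of the snoRNA or on the base just before it. These bases held 0, 4, 11 and 16 cDNAs in HSPA8, 10, 19, 0 and 15 in RPL5, and 0, 8, 0 and 11 in EIF4A2. The 3 introns do not stand for all leading introns. In others the leading base was the 14th of SNORD36C, the 20th of SNORD24, the 23rd of SNORD18B or the 24th of SNORD34.

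Exon sides carried far more crosslinks than intron sides. Density is given as cDNAs divided by the library total in units of 1000000 cDNAs and by the available positions in units of 1000, where a position was available only inside the exon or intron that the flank belongs to. Before the 5′ splice site the exon density was 4.02, 6.02, 4.40 and 9.61 in replicates 1 to 4, and after it the intron density was 0.66, 0.56, 0.74 and 0.73. Before the 3′ splice site the intron density was 0.63, 0.56, 0.61 and 0.82, and after it the exon density was 4.07, 5.93, 4.26 and 9.57. Exon and intron values did not overlap at either site. The log2 ratio of exon to intron was 3.08 ± 0.58 (SD, n = 4) at the 5′ splice site, 8.46-fold, and 3.10 ± 0.43 at the 3′ splice site, 8.60-fold (exact sign-flip permutation test, p = 0.13 for both). Without replicate 4 the values were 2.87 ± 0.48 and 2.96 ± 0.38. Most exons were shorter than 200 nt, so the exon flanks of 5′ and 3′ splice sites share many positions. The ratios at both kinds of site are therefore not independent. With each position given to its nearest splice site they were 3.08 ± 0.58 and 3.22 ± 0.45.

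The exon flanks after 3′ and before 5′ splice sites differed by a log2 ratio of -0.01 ± 0.03 (exact permutation p = 0.375). Only 21.8% and 16.6% of these flanks reached the full 200 nt, and in shorter internal exons both flanks hold the same positions. A ratio near 0 was thus largely set by this overlap. With each position given to its nearest splice site it was 0.055 ± 0.045. The ratio of the intron flanks after 3′ and 5′ sites were set against each other was -0.04 ± 0.18 (exact permutation p = 0.75), 2 libraries above and 2 below 0. In introns of at least 1000 nt, the flanks were above the remaining interior of the same introns in each library, by log2 0.38, 0.67, 0.74 and 1.02 (0.70 ± 0.26, 1.63-fold, exact permutation p = 0.13). The excess fell to 0.45 when other annotated exons and the 3 bases next to the splice sites were left out.

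Part of the intron-side signal lay in other annotated RNAs. Of the 47915 intron-side cDNAs at positions that were no exon side, counted once, 10.3% ± 6.39 were inside or within 5 nt of a snoRNA or scaRNA gene, with 5.92%, 8.59%, 6.96% and 19.7% in replicates 1 to 4. A further 25.5% ± 1.505 lay in another annotated exon, such as that of an alternative transcript. The last 3 bases of introns held 5.99% ± 2.02, and the remaining 58.3% ± 6.67 lay in none of these. Without other annotated exons and the 3 bases beside each splice site, the log2 exon to intron ratio was 3.58 at the 5′ and 3.84 at the 3′ splice site.

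The sharpest features of the profile lay within 3 bases of the splice sites. On the exon side of the 5′ splice site, density over the last 3 bases was 0.73, 0.61, 0.91 and 0.77, against 4.39, 6.27, 4.38 and 10.7 over the bases 4 to 10 nt before the border. The last 3 exon bases were thus near the intron level in every library, with a log2 difference of -3.01 ± 0.70 (exact permutation p = 0.13). On the intron side of the 3′ splice site the opposite was seen, with 3.02, 4.61, 3.32 and 6.77 over the last 3 intron bases against 0.83, 0.88, 0.71 and 1.07 over bases 4 to 10. That log2 difference was 2.29 ± 0.33 (exact permutation p = 0.13). The first 3 bases of the intron, at 0.76 ± 0.15, and those of the exon, at 5.70 ± 2.98, had no such step against bases 4 to 10, at 0.63 ± 0.13 and 6.20 ± 3.05.

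**Figure D1:**
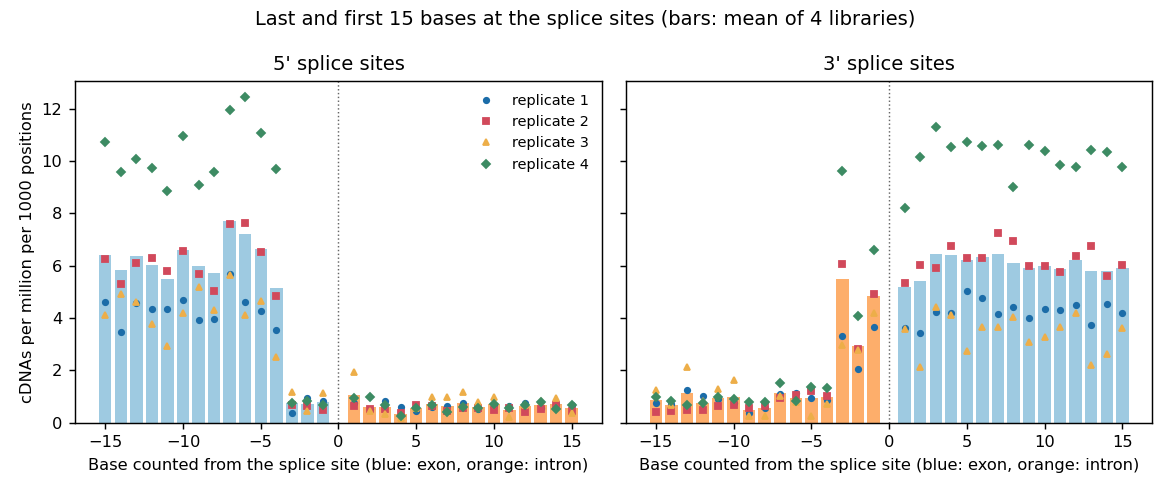
Crosslink density (normalised as in the text) at each of the 15 bases on either side of the 5′ splice sites (left) and 3′ splice sites (right), exon bases in blue and intron bases in orange. Bars are means of 4 libraries and symbols single libraries. The last 3 exon bases (0.75 on average) are at the level of the intron, and the last 3 intron bases (4.43) are near the level of the exon.

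The missing and the added density were of similar order. The density gained over the last 3 intron bases made up 59.8%, 65.8%, 75.0% and 57.4% of that missing from the last 3 exon bases (64.5% ± 7.84). In flanks that met no other gene it was 64.6% ± 6.85. The files place a crosslink on the genomic base that precedes the aligned read, so that a read starting with the first base of an exon is placed on the last base of the intron. How many bases of the upstream exon a spliced alignment needed is not given in the sources used here. Its part in the values at intron bases 2 and 3 nt before the border was not tested.

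The values also differed between introns grouped by how many letters in a row matched between exon end and intron end, counted back from the last base. They did not rise or fall steadily with the length of this run. Letters beyond the first mismatch were not compared, so the number of shared letters was not counted. Values are given against the density over the bases 4 to 10 nt before the end of the upstream exons. In 35008 introns whose last letter differed from that of the upstream exon, the intron bases 1, 2 and 3 nt before the border were at 137% ± 39.7, 131% ± 39.3 and 114% ± 19.9 of that density. In 46209 introns that matched the exon end in the last letter but not in the letter before it they were at 45.7% ± 26.3, 27.6% ± 6.77 and 50.4% ± 5.11. With the last 2 letters shared (69083 introns) the values were 70.8% ± 19.8, 29.8% ± 8.42 and 76.4% ± 14.6, and with all 3 shared (33193 introns) 117% ± 51.3, 37.6% ± 7.67 and 136% ± 58.3. The last 3 exon bases stayed at or below 29.1% of the density over exon bases 4 to 10 on average in each class. Counts per base and class ranged from 69 to 515 cDNAs over the 4 libraries, but replicate 3 held as few as 3. In replicate 3 single introns could hold much of a value. With all 3 letters matched, GTF3C1 intron 29 gave 10 of its 21 cDNAs at base 1. WDR90 intron 35 gave 8 of its 9 at base 3. No test was run between classes.

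The ends of the exon and of the intron after it are shown for 3 of the introns with the most cDNAs in their last 3 bases, 20 bases each, with the last 3 bases in capitals.
HSP90AA1 exon 4 end, chr14:102085298-102085317, minus strand: gatatcccattactcttTTT
HSP90AA1 intron 4 end, chr14:102084999-102085018, minus strand: tttcgtgttttcttttgAAG
HSP90AB1 exon 5 end, chr6:44250135-44250154, plus strand: gctatcccatcacccttTAT
HSP90AB1 intron 5 end, chr6:44250271-44250290, plus strand: cttctgtttttgttactTAG
NUCKS1 exon 3 end, chr1:205727700-205727719, minus strand: aagaattcacaggaagaTAG
NUCKS1 intron 3 end, chr1:205723982-205724001, minus strand: ttttttgcctccctttaTAG
HSP90AA1 and HSP90AB1 encode the cytosolic HSP90 chaperones, and NUCKS1 a nuclear phosphoprotein. The capitals of HSP90AA1 intron 4 held 3, 10, 1 and 21 cDNAs in replicates 1 to 4, and those of the exon before it 0, beside 38 in the exon bases 4 to 10 nt from the border. The capitals of HSP90AB1 intron 5 held 2, 11, 0 and 9 cDNAs, against 0 in the exon end, beside 7 in exon bases 4 to 10. In NUCKS1 intron 3 the counts were 1, 5, 0 and 3, against 0, but with only 2 cDNAs in exon bases 4 to 10 an empty exon end was not detectable at this depth. Among the other introns with most cDNAs in these bases, CDC37 intron 7 with 12, GTF3C1 intron 29 with 10 and WDR90 intron 35 with 9 had them in replicate 3 alone. All 230 such cDNAs of replicate 3 came from 60 positions, or 3.83 per position, against 1.06 to 1.60 in the other libraries.

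Upstream of these bases the polypyrimidine tract still stood above the intron 100 to 51 nt before the border. From 20 to 3 nt before the 3′ splice site, in introns of at least 200 nt, density exceeded that of 100 to 51 nt before it by log2 0.90, 1.27, 0.96 and 1.52 (1.16 ± 0.29, exact permutation p = 0.13). Without the last 3 bases, from 20 to 4 nt, the excess was 0.78 ± 0.09. In that window 48.1% of positions and 51.1% ± 2.84 of cDNAs were on U, against 30.2% and 33.6% ± 4.31 in the reference window. The excess was 0.72 ± 0.19 over U positions alone and 0.76 ± 0.09 over the other bases alone.

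Other zones differed little from their surroundings. The branch point zone, 40 to 21 nt before the 3′ splice site, was at log2 0.04 ± 0.10 (exact permutation p = 0.5), and the first 10 bases of the intron were at 0.05 ± 0.27 (exact permutation p = 0.75). The last 25 exon bases were at -0.18 ± 0.07 (exact permutation p = 0.13), which shrank to -0.04 without the last 3 bases. The first 25 exon bases were at -0.06 ± 0.14 (exact permutation p = 1), with replicate 3 at -0.27 and each of the others at 0.01.

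Crosslinks lay on U, and near GA-rich pentamers, more often than all positions of the same flanks in each library. The pentamer window ran from 5 nt before to 30 nt after a position. On exon sides 18.1% ± 1.35 of cDNAs had GAAGA in this window, against 16.03% ± 0.90 of all positions of the same flanks weighted in the same way, a log2 ratio of 0.17 ± 0.08 above 0 in 4 of 4 libraries (exact permutation p = 0.13). The window follows the genome, also past the end of an exon, and the ratio was 0.12 over positions with at least 36 nt of exon after them. On intron sides the shares were 6.48% ± 1.14 and 4.52% ± 0.158, and the log2 ratios 0.55, 0.69, 0.12 and 0.63 (0.50 ± 0.26, exact permutation p = 0.13), replicate 3 being lowest. Near the 3′ splice site the window of an intron position reaches into the next exon. Over all positions, 10.1% on exon sides and 4.35% on intron sides had GAAGA in the window. Intron positions with the whole window inside the intron were not looked at apart. The part of this reach in the intron ratios of all pentamers was not tested. The intron mean for GAAGA was 0.34 without the 3 bases beside the splice sites. With a window of 15 nt to either side it was 0.33, and the exon value 0.11. GAGGA was at 0.11 ± 0.05 and 0.21 ± 0.14 on exon and intron sides, and GACGA at 0.26 ± 0.11 and 0.73 ± 0.39. The study had found GAAGA as an enriched pentamer in these libraries, so these ratios are no independent evidence of a preference. The AU-rich pentamer AUAAU was at -0.08 ± 0.11 and -0.40 ± 0.24, and the latter was below 0 in 4 of 4 libraries. The study had reported AUAAU as rare around the PR100 crosslinks, so its low values are no independent evidence either.

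At the crosslinked base itself, U made up 29.7% ± 3.38 of cDNAs on exon sides, against 21.1% ± 0.42 of positions (log2 0.49 ± 0.16, exact permutation p = 0.13). On intron sides the values were 33.2% ± 3.37 and 27.1% ± 1.36 (log2 0.29 ± 0.11, exact permutation p = 0.13). UV light crosslinks uridine readily with many proteins. G was at -0.41 ± 0.15 on exon sides, below 0 in 4 of 4 libraries.

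Exon flanks with more GA-rich pentamers had a higher density than other exon flanks of the same gene. Exon flanks were grouped by their number of starts of these 3 GA-rich pentamers, and each gene's own mean exon flank density served as reference. Flanks with 0, 1, 2 and at least 3 starts were at 0.87, 0.97, 1.08 and 1.33 times that mean. The log2 value of the last group was 0.38, 0.38, 0.44 and 0.45 in replicates 1 to 4. That of flanks without a start was -0.21 ± 0.04. On intron sides the same groups were at 0.97, 0.99, 1.197 and 1.195 times. Each gene's mean includes all of its groups, so values above and below it are tied together. The study had found GAAGA enriched in these same libraries, so this order is no independent evidence of a preference.

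Introns differed by their place in the gene. First introns had an exon to intron log2 ratio of 2.51 ± 0.59 (5.68-fold) and later introns of 3.17 ± 0.49 (8.99-fold). The difference was -0.58, -0.84, -0.82 and -0.40 in replicates 1 to 4 (-0.66 ± 0.21, exact permutation p = 0.13). Both sides took part, with a density of 0.88 ± 0.19 on the intron sides of first introns against 0.64 ± 0.10, and 5.17 ± 1.97 on their exon sides against 6.08 ± 2.63. Last introns, which are part of the later introns, were also below that class in each library, at 2.85 ± 0.43 (7.20-fold). A lower ratio was thus not particular to first introns.

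Intron length gave no stable order. Introns under 1000 nt had a ratio of 7.01-fold and those of at least 10000 nt one of 9.55-fold, a log2 difference of -0.45 ± 0.28 (exact permutation p = 0.13). It turned to 0.18 ± 0.12 when other annotated exons were left out and was -0.14 ± 0.10 in flanks that met no other gene. Density itself was higher near short introns on both sides, at 7.29 ± 3.25 and 0.99 ± 0.23 against 4.08 ± 1.48 and 0.41 ± 0.07 for the longest. The 1401 GC-AG introns were at log2 3.74 ± 0.74 and the 181819 GT-AG introns at 3.09 ± 0.51. The 186 AT-AC introns, mostly removed by the minor spliceosome, were at 2.34 ± 1.33 on only 82 intron cDNAs.

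Of the 18646 genes, 12719 held a flank cDNA and 90 held at least 200. The 10 leading genes held 3.34% of the flank cDNAs, and 1186 genes were needed for 50% of them. NCL, which encodes the nucleolar protein nucleolin, had 296, 722, 99 and 416 flank cDNAs in replicates 1 to 4, the most of any gene in the sum of the libraries. Its coding exon 2, shown above, held 41, 160, 25 and 79. ACVR2B, an activin receptor gene, came next with 129, 368, 152 and 504, of which 125, 359, 152 and 501 lay in exon 2. It had more than NCL in replicates 3 and 4 and fewer in replicates 1 and 2. The single leading base of ACVR2B held 29, 64, 31 and 100 cDNAs, so the signal was present in each library.

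HSP90AA1 had 149, 437, 57 and 380 cDNAs, and EEF2, the elongation factor that moves the ribosome along mRNA, had 144, 542, 46 and 264. The first 200 bases of HSP90AA1 exon 5 held 68, 234, 4 and 198, and the last 200 held 43, 111, 1 and 76. In HSP90AB1 exon 6 the first 200 bases held 31, 137, 22 and 86, and the last 200 held 20, 107, 12 and 35. These exons are 318 and 309 nt long, so the first and last 200 bases overlap and share cDNAs. ARNT exon 1 was among the 5 leading exon flanks before a 5′ splice site, with 124 cDNAs, but 121 of them came from replicate 2 and 102 of these lay at 1 base.

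PRRC2A, HUWE1 (a ubiquitin ligase) and HNRNPU (a nuclear RNA-binding protein) ranked among the 10 leading genes as well, with 669, 639 and 583 flank cDNAs, of which 4.93%, 7.04% and 6.17% were intronic. The lowest intron shares among genes with at least 200 cDNAs were those of ACVR2B (0.26%), CANX (1.46%), NEFM (1.84%), EIF3A (2.54%) and SMC1A (3.13%). With 3 to 11 intron cDNAs each, their Wilson intervals ended between 0.76% and 5.67%. The median over the 90 genes was 9.43%.

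Genes with an intron share over 50% numbered 9 of the 90. EIF4A2 and EIF4A1, translation initiation helicases, had 89.9% (Wilson interval 85.6 to 93.0) and 77.6% (71.7 to 82.6). RPL7A, RPL23A and RPL13A, all of the large ribosomal subunit, had 87.5%, 83.9% and 77.1%. RPL4 had 69.6%, and NOP56, a core protein of box C/D snoRNPs, had 70.7%. In all 7 genes most of these cDNAs were inside or within 5 nt of an annotated snoRNA, from 90.5% in NOP56 to 98.9% in RPL23A. NCL had 93.0% of its 227 intron cDNAs there.

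The leading intron flanks each held a snoRNA of the C/D family. HSPA8 intron 8 held 40, 66, 36 and 80 cDNAs in its first 200 bases, with the leading base just before SNORD14E. NOP56 intron 10, only 185 nt long, held 40, 72, 7 and 90, with the leading base 2 before SNORD57. RPL7A intron 2 held 46, 126, 27 and 146 in its last 200 bases, with the leading base at the 20th of SNORD24, and intron 6 of the same gene held 49, 33, 15 and 50 around SNORD36C. In RPL4 intron 4 the count was 37, 31, 11 and 94, and the leading base was the 23rd of SNORD18B. RPL5 intron 5 held 23, 51, 15 and 30, RPL13A intron 5 held 34, 31, 7 and 47, and EIF4A2 intron 3 held 14, 44, 5 and 51. Each of these introns held cDNAs in every library, and replicate 4 had the most in 7 of these 8 introns. Mature snoRNA and unspliced pre-mRNA cannot be told apart at these positions.

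Gene lists gave the same contrast. The 85 cytosolic ribosomal protein genes, of which 81 had a flank cDNA, had an intron share of 46.0%, 39.1%, 44.6% and 46.3% (44.01% ± 3.34), against 20.7% ± 5.72 over all genes. Of their 2847 intron cDNAs, 84.9% were in or near a snoRNA, against 9.56% over all genes. Their log2 exon to intron ratio was 1.43 ± 0.22. In flanks that met no other gene, and without the 3 bases beside the splice sites, it was 4.63 ± 0.81, against 3.42 ± 0.64 over all genes. RPS6, RPS24 and RPL19 of this list, at 3.85%, 6.09% and 2.78% intronic, had no intron cDNA in or near an annotated snoRNA.

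Genes of the splicing machinery and of chromatin had intron shares below that of all genes in each library. SR proteins and TRA2 (13 genes) had 12.01% ± 4.02, hnRNPs (20 of 24 genes with a cDNA) 10.2% ± 4.51 and core spliceosome genes (41 of 43) 11.4% ± 4.58. Chromatin remodellers (30 of 31) had 9.31% ± 3.89. In the same order, intron density was 3.85 ± 1.06, 2.62 ± 0.74, 1.24 ± 0.39 and 0.75 ± 0.16, against 0.66 ± 0.09 over all genes. Exon density averaged 66.9, 61.6, 25.8 and 18.8, against 5.98. The lower shares thus stood beside higher exon density, not lower intron density. The CLK kinases with OGT and OGA, known for introns that are detained in the nucleus, did not have a lower share in each library. Their shares were 25.9%, 22.4%, 3.45% and 18.2% in replicates 1 to 4, on 68 intron cDNAs from 6 genes. The mean of 17.5% ± 9.88 became 22.2% ± 3.88 without replicate 3, against 19.3% ± 6.01 over all genes without that library. Among them OGT had 19 intron cDNAs of 63 and CLK2 had 17 of 80. Those of CLK2 came mostly from replicate 2, with 3, 13, 0 and 1 in replicates 1 to 4. SNRNP70 stood out from the core spliceosome genes with 25 of 91 and PRPF39 with 43 of 80, of which 19 were in or near a snoRNA. SNRNP70, PRPF39 and the 3 ribosomal protein genes without snoRNA were picked after their values had been seen, and no list was tested against other genes.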

How the data were processed

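Per the labels and the study's methods, the authors sequenced 100-nt single-end reads, collapsed PCR duplicates by random barcode, mapped with STAR (version not given in the sources used here) to GRCh38 with Gencode 27, allowing 2 mismatches, kept unique reads and assigned the preceding base as crosslinked. The deposited files give cDNA counts per position and library, and clusters with summed counts at FDR below 0.05. Files of the pooled positions were not used.

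Positions were set against GENCODE 44 on hg38, the same build; in 96 comparisons of a chromosome with its length no position lay past the end. Flanks reached 200 nt from each splice site and stopped at the other end of the exon or intron. Counts per available position were divided by library totals (125694 to 604816). Ratios were tested over the 4 libraries of the single group by exact two-sided sign-flip permutation. No pseudocount was used. Named genes were the flank with the most cDNAs per gene, the 5 leading of these per side, the 10 leading genes, the 5 with the highest and lowest intron share at 200 or more cDNAs, and leading list members; 1 of these flanks is not reported here. Three-base features and their examples were chosen after the profile had been seen, and the members and lists with earlier results of these data known. Functions recovered 7 of 7 planted log2 values within 0.1 on simulated counts. Python 3.11, numpy and pandas were used. Alternatives (other exons, other genes, nearest site, positions counted once, window, leading genes, coding sequence, each library left out) are given in the closing section.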

Additional observations from a re-analysis of the deposited data

Results flagged for a closer look

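In 2 zones, replicate 3 lay far from the other 3 libraries, by Dixon's 95% criterion for groups of 4, which chance meets in about 1 of 20 groups. The criterion was applied to all 19 results, so a hit by chance alone would be no surprise. For the last 25 exon bases against 100 to 51 nt before the 5′ splice site its log2 ratio was -0.076, against -0.20, -0.22 and -0.21 in replicates 1, 2 and 4. For the first 25 exon bases against 51 to 100 nt after the 3′ splice site it was -0.27, against 0.01, 0.01 and 0.01. Replicate 3 had the fewest flank cDNAs (20823), on 5991 positions, and the part of this depth in both values was not tested.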

How the results depend on the processing

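Of 263 recomputed values for 19 results, 236 kept their sign and stayed within 1 SD of the value reported; the cause of the other changes was not tested. With other annotated exons left out of intron sides, the exon to intron ratio at the 3′ splice site moved from log2 3.10 to 3.64, and to 3.84 also without the 3 bases at the splice sites. The ratio of 3′ to 5′ intron flanks was -0.23 without other genes and 3 bases, -0.30 without other exons and 3 bases, and turned to 0.038 without replicate 3. That of exon flanks turned to 0.055 with each position given to its nearest splice site and to 0.037 with 100 nt a side, and was -0.046 without other genes and 3 bases. The polypyrimidine zone was at 0.78 without 3 bases, 0.78 from 20 to 4 nt, 0.83 also without other genes, 0.72 on U alone and 0.76 on other bases. The intron start zone turned to -0.036 without the first and last base, -0.014 without 3 bases and -0.068 without replicate 3. The exon end zone was -0.041 without 3 bases, also with other exons left out, and -0.042 also without other genes. The exon start zone turned to 0.031 with each position counted once, 0.022 without the 10 leading genes and 0.012 without replicate 3. First against later introns was -0.87 without other exons and 3 bases. Short against long introns turned to 0.18 without other exons and 0.21 also without 3 bases, and was -0.14 without other genes and -0.12 also without 3 bases.

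Leaving out each library gave 17.4 to 22.8% for the flank share, 2.87 to 3.25 and 2.96 to 3.24 for the exon to intron ratios, 0.60 to 0.81 for flank against interior, 1.04 to 1.25 for the polypyrimidine zone, -3.25 to -2.74 for the last 3 exon bases and 2.16 to 2.42 for the last 3 intron bases. It gave -0.11 to 0.038 for the intron flanks, -0.068 to 0.14 for the intron start and -0.083 to 0.012 for the exon start. GAAGA on exon sides with 36 nt or more of exon after the position was at 0.12. With 15 nt to either side GAAGA was at 0.11 on exon and 0.33 on intron sides. No paired analysis was possible because there is 1 group. At this depth most flanks held no cDNA, so a flank without one is not shown to be unbound, and no control library was analysed here.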
